A study of Mus musculus with 9 samples.

Results

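The genes described here encode the uptake of fatty acids by muscle and their oxidation in mitochondria. They are 37 genes, chosen by name: 5 for uptake and binding, 2 lipases, 5 long-chain acyl-CoA synthetases, 4 of the carnitine shuttle, 15 enzymes of mitochondrial oxidation and its electron transfer, 3 around malonyl-CoA and acyl-CoA hydrolysis, and 3 regulators. All 37 were present among the 24062 gene symbols of the count table, and all 37 had enough counts to be tested. Counts came from 9 RNA sequencing libraries of mouse gastrocnemius, a calf muscle of mostly fast fibres, taken from mice of a 129Sve/C57BL/6 mix aged 3 months, with no treatment named. The 3 genotypes had 3 libraries each: WT, hetL1002P (labelled BubR1+/L1002P) and hetX753 (labelled BubR1+/X753). Both carriers have 1 altered copy of Bub1b, which encodes the mitotic checkpoint protein BubR1. The design asks what either allele does to muscle expression. Whether each library is a different animal is not in the labels. The p-values therefore weigh differences against the spread of these samples only, and part of that spread may be technical.

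As background, fatty acids reach muscle from lipoproteins, from albumin and from the fibre's own droplets. They are coupled to coenzyme A, handed to carnitine to cross the inner mitochondrial membrane, and then shortened by repeated rounds of dehydrogenation, hydration, dehydrogenation and thiolysis. Malonyl-CoA brakes the entry step, and the PPAR receptors with the coactivator PGC-1α set the expression of many of the enzymes.

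Library totals ran from 19768149 to 33977252 counts. All 8 genes listed as defining skeletal muscle were detected, with a summed level of 152600 to 198300 CPM (a count as a share of its library's total, after TMM scaling for composition). Bub1b had 11 to 21 counts per library in WT and 2 to 10 in the 6 carrier libraries. WT 3 and hetL1002P 3 had the lowest TMM scaling factors, 0.886 and 0.925, against 0.980 to 1.08 in the other 7. Ttn, the giant sarcomere gene, stood at 2594 CPM in WT 3 and at 5144 to 6750 CPM in the other 8 libraries. The alternatives include fits without these libraries and a fit after removing a trend on the length and GC content of transcripts.

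Among the 37 genes, 1 passed the test in hetX753 against WT, the acyl-CoA synthetase gene Acsl3, which was lower. In the same comparison 0.508% of all 12989 genes tested passed (edgeR quasi-likelihood test, adjusted p under 0.05 by Benjamini-Hochberg over all genes). No member passed in hetL1002P against WT, where 0% of all genes did, and none between the carriers, where 0.115% did. WT and hetL1002P libraries of the same number deviated together, and with that number as a block in a fit of these genotypes only, 635 genes or 5.01% passed, among them 1 member, Ppargc1a. With the block in all 9 libraries 0 genes passed in that comparison. In the joint test for any difference among the 3 genotypes 0 members passed, against 0.216% of all genes. At an unadjusted p under 0.05 the members numbered 7 in hetX753, where 20.9% of all genes reached it, 2 in hetL1002P (7.96% of all genes) and 1 between the carriers (8.24%). DESeq2, run as another tool, called 2 members in hetX753, 0 in hetL1002P and 1 between the carriers, where it called 5.23%, 0.0385% and 1.06% of all genes. Limma-voom called 0 members in each, and 0.423%, 0.0154% and 0.123% of all genes. The median log2 fold change of the 37 genes was 0.0029 in hetX753, with 20 above 0, and -0.0046 in hetL1002P, with 18 above 0. Over all genes tested these medians were 0.0032 and 0.013.

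**Figure D1:**
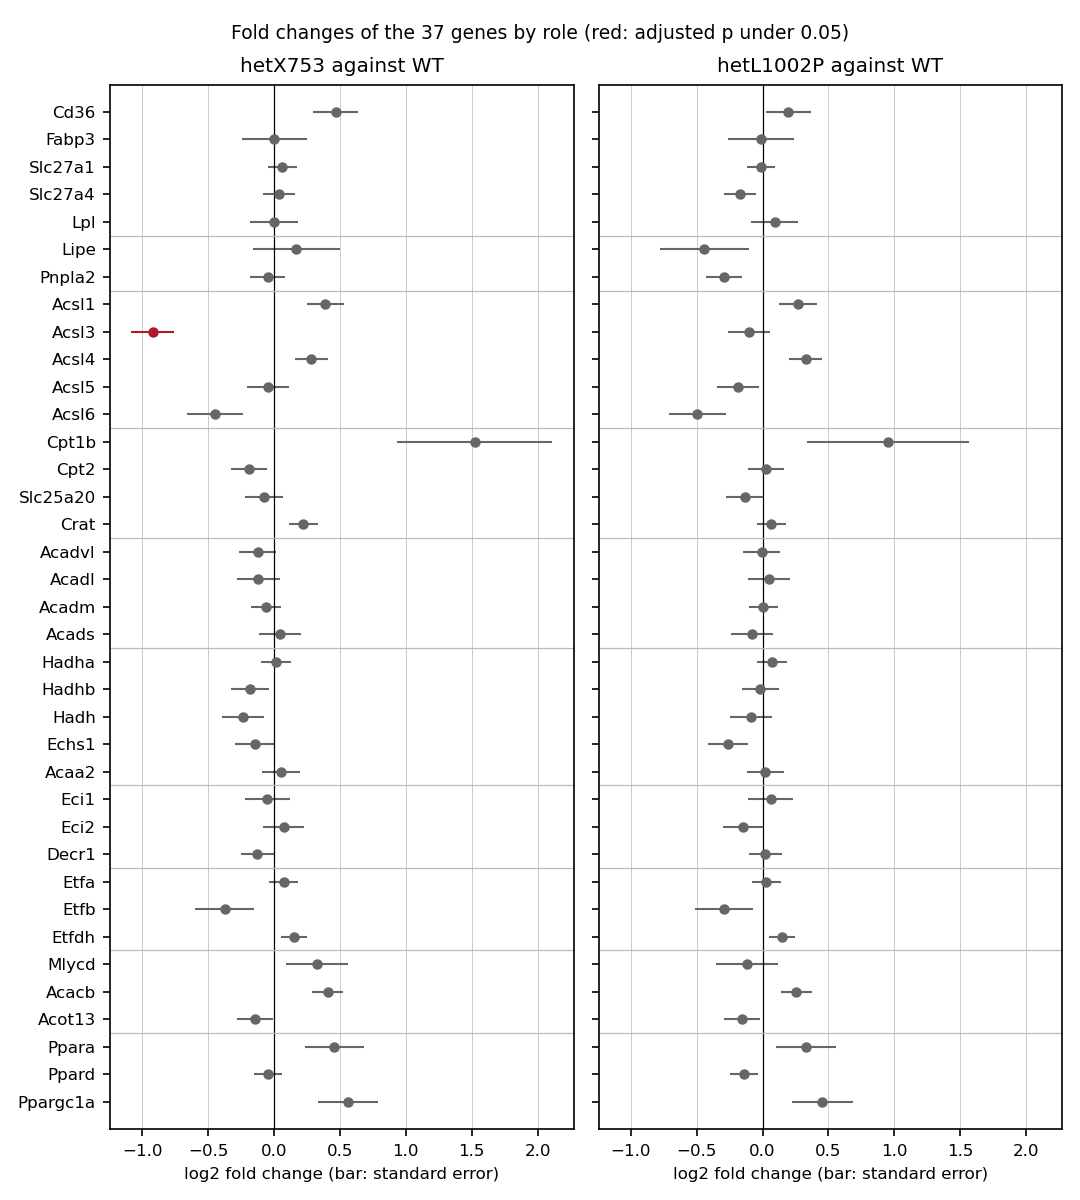
Log2 fold change of each of the 37 genes (points) with its standard error (bars), against WT, for hetX753 on the left and hetL1002P on the right, with lines between roles. Acsl3, in red, is the 1 gene past an adjusted p of 0.05, at -0.92 in hetX753.

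The sequences below are shown because the results return to them: the region upstream of Acsl3, the 1 member that passed, and the stretch between Hadha and Hadhb, whose levels moved together. Both are 250 bases from the RefSeq table on GRCm38.p6, read in the direction of the gene named, and end just before its start. Capitals mark GGGCGG on either strand, the letters of a GC box, and CCAAT on either strand. The Acsl3 region lies on the plus strand at chr1:78657575-78657824, and the Hadhb region on the plus strand at chr5:30155003-30155252. The starts of Hadha, on the minus strand, and Hadhb are separated by 272 bases, so this second stretch lies upstream of both genes.
Acsl3: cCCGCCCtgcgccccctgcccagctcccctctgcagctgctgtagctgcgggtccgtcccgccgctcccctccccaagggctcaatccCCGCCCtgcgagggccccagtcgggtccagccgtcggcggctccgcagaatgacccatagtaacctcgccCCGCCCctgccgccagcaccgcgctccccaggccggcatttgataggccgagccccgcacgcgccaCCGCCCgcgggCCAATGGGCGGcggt
Hadhb: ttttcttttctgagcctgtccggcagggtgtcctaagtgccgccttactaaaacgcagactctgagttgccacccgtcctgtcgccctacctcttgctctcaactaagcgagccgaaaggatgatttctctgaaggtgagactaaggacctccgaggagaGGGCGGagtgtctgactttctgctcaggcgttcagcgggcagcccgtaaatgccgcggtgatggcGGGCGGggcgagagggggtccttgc
The Acsl3 region held 5 matches to GGGCGG and 1 to CCAAT, with 75.6% G or C, and the Hadhb region 2 and 0, with 58.8%. Windows were at hand for 31 of the 37 genes, and 21 of these had GGGCGG in at least 1 window. These 31 genes had 37 windows, of which 24, or 64.9%, held it, against 32.7% of the 32851 upstream windows of that length in the table. A strict direct repeat of AGGTCA spaced by 1 base, the element bound by PPAR with RXR, was in 0 of the 37 windows and in 0.0335% of all. TCAAGGTCA, the element of the oestrogen-related receptors, was in 1 member's window (Acsl6) and in 0.387% of all. A match or its lack describes these letters alone.

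Levels are compared between genes per kilobase of exon, since counts grow with transcript length. Fabp3, the fatty acid-binding protein of heart and oxidative muscle, had the highest level, at 428 CPM per kilobase over the 9 libraries. Etfb followed at 181, Acadvl at 144, Crat at 122, Acaa2 at 116 and Acadl at 108 CPM per kilobase. At the low end, above Cpt1b, stood the synthetase genes Acsl3, Acsl4 and Acsl5, the regulators Ppara and Ppargc1a and the transporter gene Slc27a4, at 1.20 to 4.37 CPM per kilobase. The length used moved the order in the middle. With the longest coding RefSeq transcript, a length chosen after the values were seen, Hadhb went from 65.9 to 212 CPM per kilobase and from rank 11 to 3, and Echs1 from 15.9 to 84.5 and from rank 24 to 16. Fabp3 and Etfb held ranks 1 and 2 with each of the 3 lengths tried. The spread between libraries of a genotype also differed among genes: the coefficient of variation was 4.84% for Etfdh, 6.82% for Crat and 7.32% for Acadm, but 24.3% for Etfb, 26.8% for Fabp3, 42.1% for Lipe and 60.2% for Cpt1b.

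**Figure D2:**
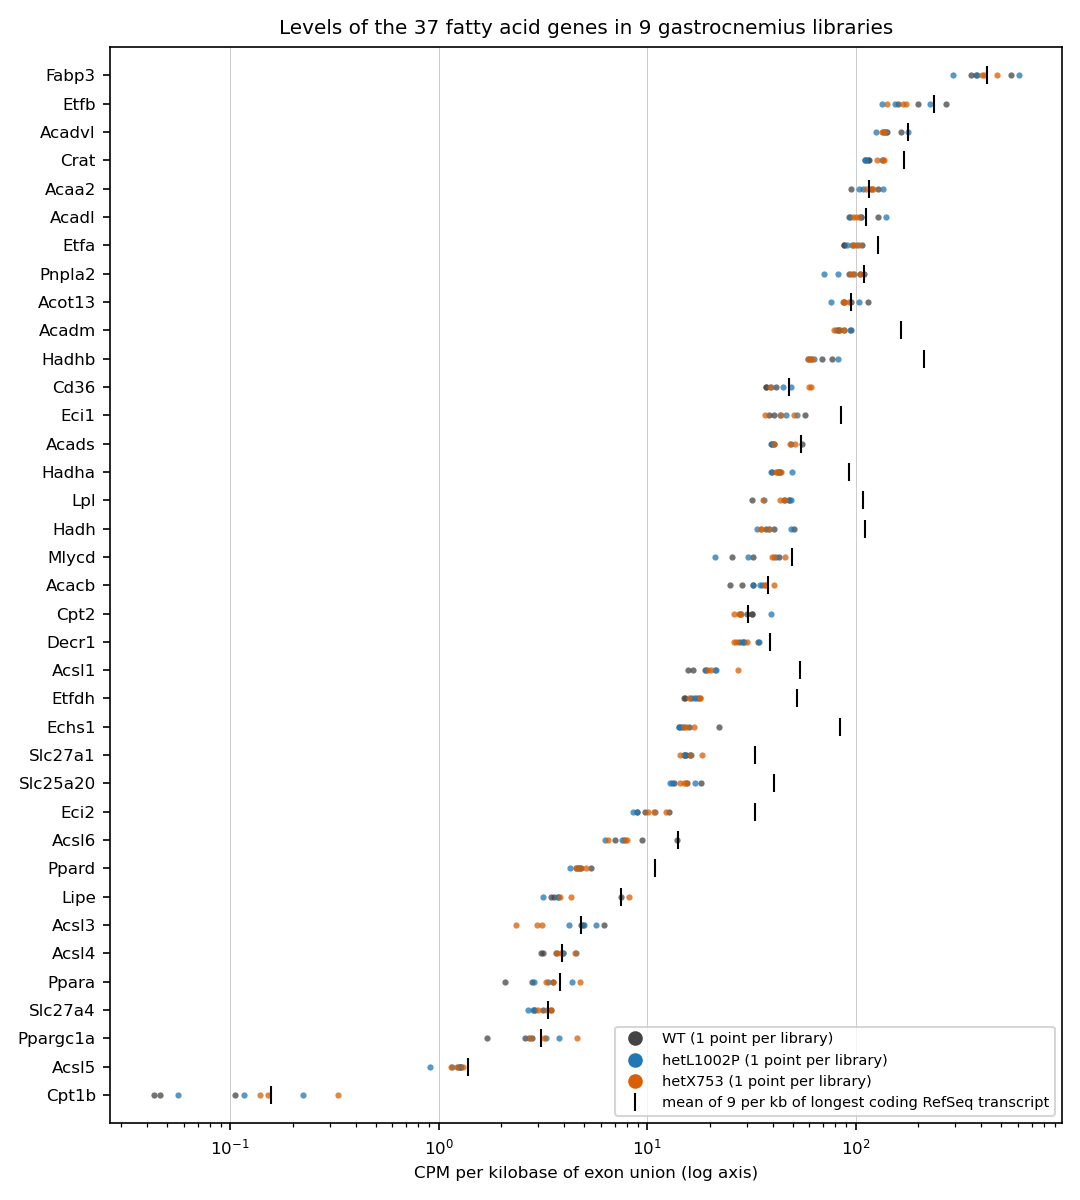
Levels of the 37 genes in CPM per kilobase of exon union (log axis), 1 point per library coloured by genotype, with ticks for the 9-library mean per kilobase of the longest coding RefSeq transcript. Levels span from Cpt1b, below 1, to Fabp3, at 428, and the tick lies far from the points for Echs1 and Hadhb.

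Cpt1b, the carnitine palmitoyltransferase that guards mitochondrial entry in muscle, stood last, with 3 to 24 counts per library. Its count is uncertain as a measure of the gene. Of its 3372 exon bases, 2744 are shared on the same strand with Gm44502, a read-through gene of Chkb and Cpt1b that RefSeq places on chromosome 15 from 89416405 to 89429927. The count table lists that gene as ChkbCpt1b, with 0 counts in all 9 libraries, and Chkb itself had 4 to 11 counts. How reads that fall in more than 1 gene were assigned is not given in the sources used here, and its part in these counts was not tested. The WT libraries had 12, 3 and 3 counts of Cpt1b, those of hetL1002P 10, 21 and 4, and those of hetX753 13, 13 and 24. All 3 hetX753 counts exceeded those of WT, with a log2 fold change of 1.52 (SE 0.59, adjusted p = 0.193) that did not pass. Of the 37 members 14 share exon bases with another gene, 11 of them on the opposite strand, and the strand setting of the counting is not given in the sources used here. Acsl5, with 93 to 204 counts, shares 404 bases with Zdhhc6, which had 503 to 857, so its count is uncertain too. Etfb shares 617 of its 1164 exon bases on the same strand with Gm45233, which the count table does not list under that name. The level of Etfb carries the same uncertainty.

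Among the genes of uptake, no member passed in any comparison. Cd36, the scavenger receptor that takes up long-chain fatty acids, stood at 133, 149 and 134 CPM in the WT libraries, at 175, 161 and 141 in hetL1002P and at 139, 220 and 216 in hetX753. The libraries hetX753 2 and 3 were the highest of the 9, while hetX753 1 lay among the WT values. Its log2 fold change in hetX753 was 0.47 (SE 0.17, adjusted p = 0.179), and in hetL1002P 0.20 (SE 0.17, adjusted p = 0.661), or 0.11 without hetL1002P 1. Fabp3 stood at 310, 294 and 456 CPM for WT, with 313, 240 and 498 for hetL1002P and 339, 391 and 332 for hetX753. Its means, 353, 351 and 354 CPM, were close beside SDs of 89.2, 133 and 32.6 CPM (n = 3 each). Lpl, the lipase that frees fatty acids from circulating lipoproteins, ranged from 332 to 513 CPM with all 3 genotypes overlapping. The transport proteins Slc27a1 and Slc27a4 ranged from 84.1 to 107 and from 11.9 to 15.3 CPM. Endothelial cells also carry Cd36, and their 10 markers summed to 246 to 322 CPM, all 10 detected, with hetX753 at 311 to 313. In bulk tissue, fewer cells of a type and less RNA per cell cannot be told apart.

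The lipases Pnpla2 and Lipe free fatty acids from triglyceride and diglyceride in turn. Pnpla2 stood at 281, 318 and 331 CPM in WT libraries 1 to 3, 249, 213 and 297 in those of hetL1002P and 294, 318 and 287 in those of hetX753. The hetL1002P values lay low but overlapped WT, with log2 fold change -0.29 (SE 0.13, adjusted p = 0.579) and 0.24 for hetX753 against hetL1002P (SE 0.13, adjusted p = 0.703). The latter was 0.14 without hetL1002P 2 and 0.38 without hetL1002P 3. Lipe stood at 20.9, 44.3 and 20.3 CPM in the WT libraries, at 22.1, 22.0 and 18.6 in hetL1002P and at 22.4, 48.2 and 25.3 in hetX753. WT 2 and hetX753 2 stood apart from the other 7 libraries, and all hetX753 libraries lay above all of hetL1002P, by a small margin for hetX753 1. The same 2 libraries had the highest summed level of 10 adipocyte markers, 515 and 516 CPM, against 222 to 337 in the other 7. All 10 markers were detected in every library. WT 2 was the highest WT library in 9 of them and hetX753 2 the highest hetX753 library in 10, but the pair were the top of all 9 libraries in only 4 (Adipoq, Plin1, Cidec and Pparg). Adipoq, a hormone made by adipocytes, stood at 33.0 and 45.5 CPM there and at 6.17 to 16.7 in the others, and Plin1, which coats the adipocyte droplet, at 18.3 in each and at 2.42 to 13.9. The part of adipocytes in the Lipe values was not tested. Between the carriers the log2 fold change of Lipe was 0.61 (SE 0.34, adjusted p = 0.703), and 0.19 without hetX753 2. Against WT it was -0.44 in hetL1002P (SE 0.34, adjusted p = 0.627), and 0.02 without WT 2.

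**Figure D3:**
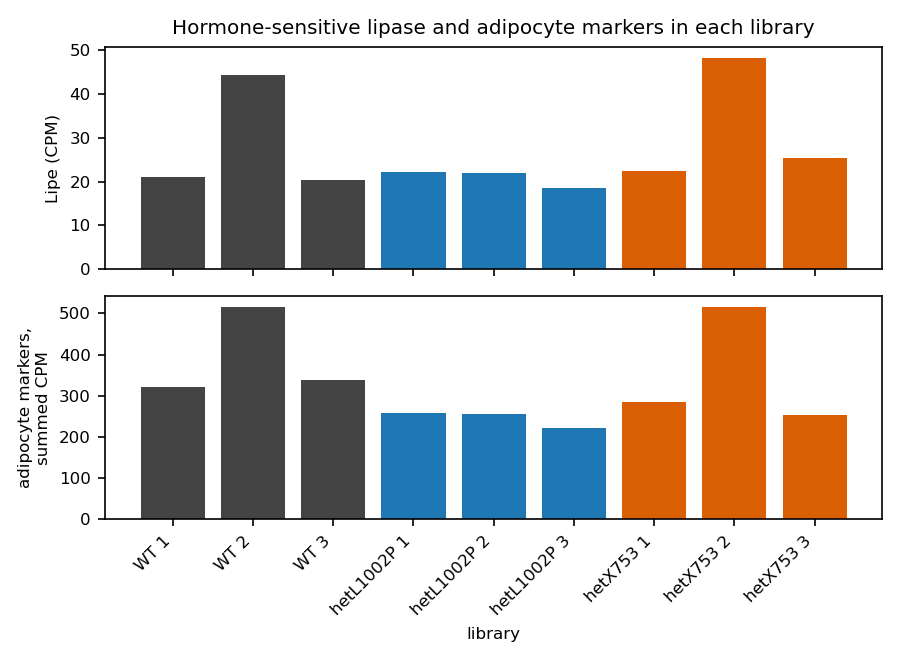
Lipe in CPM (upper bars) and the summed CPM of 10 adipocyte markers (lower bars) in each of the 9 libraries, coloured by genotype. WT 2 and hetX753 2 are highest in both, at 44.3 and 48.2 CPM for Lipe.

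The acyl-CoA synthetases, which attach coenzyme A to long-chain fatty acids, held the 1 member that passed. Acsl3, an isoform known from the endoplasmic reticulum and lipid droplets, stood at 20.9, 27.2 and 21.6 CPM for WT, with 24.9, 18.3 and 21.6 for hetL1002P and 12.9, 13.6 and 10.3 for hetX753. All 3 hetX753 libraries lay below all 6 others. Means were 23.2 ± 3.45, 21.6 ± 3.26 and 12.3 ± 1.73 CPM (SD, n = 3 each). In hetX753 against WT, Acsl3 was 1.89-fold lower, with a log2 fold change of -0.92 (SE 0.16) and an adjusted p of 0.0403 (edgeR). In hetL1002P against WT it was -0.10 (SE 0.16, adjusted p = 0.801). Between the carriers it was -0.82 (SE 0.16, adjusted p = 0.104), so that difference did not pass. Acsl3 spans positions 78657825 to 78707743 of chromosome 1 (GRCm38). Its exons share 244 bases on the same strand with Utp14b, which had 2 to 18 counts per library, against 223 to 708 for Acsl3. Acsl3 did not pass with limma-voom (adjusted p = 0.0513), library totals alone (0.0918), the replicate block in all 9 libraries (0.053), and in 7 of the 9 fits without 1 library (0.0663 to 0.184), all but those without hetL1002P 2 or 3. Without both WT 2 and hetX753 2 the adjusted p was 0.308. The log2 fold change stayed between -1.03 and -0.79 in all 23 alternatives, and without both WT 3 and hetL1002P 3 the adjusted p was 0.0309.

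The other synthetases did not pass. Acsl1, the main isoform of oxidative tissues, stood at 200, 173 and 164 CPM in WT libraries 1 to 3, 223, 201 and 222 in those of hetL1002P and 213, 206 and 286 in those of hetX753. All 6 carrier libraries were above WT, by a small margin for hetL1002P 2 over WT 1. Its log2 fold change was 0.39 in hetX753 (SE 0.14, adjusted p = 0.18) and 0.27 in hetL1002P (SE 0.14, adjusted p = 0.579). Acsl4, which favours arachidonic acid, stood at 19.8, 17.0 and 16.7 CPM in the WT libraries, at 21.3, 24.6 and 21.4 in hetL1002P and at 20.98, 20.0 and 24.3 in hetX753. Its carrier libraries were again all above WT, by a small margin for hetX753 2 over WT 1. The log2 fold change of Acsl4 was 0.28 in hetX753 (SE 0.13, adjusted p = 0.236) and 0.33 in hetL1002P (SE 0.13, adjusted p = 0.579). Both carriers are compared with the same 3 WT libraries, so these are not independent results. Acsl6 stood at 93.4, 69.5 and 138 CPM for WT, with 76.6, 62.0 and 75.3 for hetL1002P and 79.5, 64.1 and 77.3 for hetX753. WT 3 was highest and the groups overlapped, with log2 -0.45 in hetX753 (SE 0.21, adjusted p = 0.26) and -0.49 in hetL1002P (SE 0.21, adjusted p = 0.579). Without WT 3 these were -0.15 and -0.19. Without hetX753 3 the hetX753 value of Acsl1 was 0.22. Acsl5 ranged from 4.41 to 6.37 CPM with all genotypes overlapping. With the length and GC trend removed, the value in hetX753 was 0.15 for Acsl1, 0.02 for Acsl4, -0.72 for Acsl6 and -1.02 for Acsl3 (adjusted p = 0.0276 for Acsl3 alone of these).

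**Figure D4:**
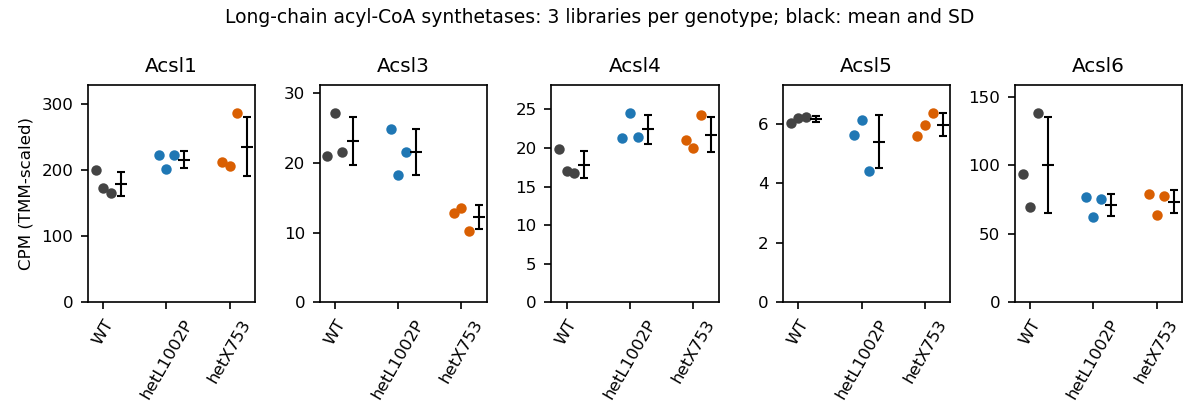
CPM of the 5 long-chain acyl-CoA synthetase genes in 3 libraries per genotype (points), with mean and SD in black. The hetX753 values of Acsl3, 10.3 to 13.6 CPM, lie below all others, while those of Acsl5 and Acsl6 overlap WT.

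In the carnitine shuttle, Crat, which trades acetyl groups between carnitine and coenzyme A, was the gene with the most counts of all 37. It stood at 622, 597 and 619 CPM in WT libraries 1 to 3, 597, 606 and 724 in those of hetL1002P and 736, 729 and 682 in those of hetX753. The hetX753 libraries were all above WT, but hetL1002P 3 lay among them. The log2 fold change was 0.22 in hetX753 (SE 0.11, adjusted p = 0.271). Cpt2, the inner-membrane transferase, ranged from 62.5 to 67.0 CPM in hetX753 and from 71.7 to 76.0 in WT, without overlap, at log2 -0.19 (SE 0.14, adjusted p = 0.435). Slc25a20, the carrier between the 2 transferases, ranged from 62.4 to 88.3 CPM over all genotypes.

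Groups without overlap were counted next, beside the same count over all genes. In hetX753 against WT, 5 of 37 members had all libraries higher (Acsl1, Acsl4, Cpt1b, Crat and Acacb) and 2 all lower (Acsl3 and Cpt2), where 16.7% and 15.8% of all genes did. In hetL1002P the numbers were 3 higher (Acsl1, Acsl4 and Etfdh) and 0 lower, against 5.67% and 3.77% of all genes. Between the carriers 4 members were all higher in hetX753 (Slc27a4, Lipe, Echs1 and Acacb) and 1 all lower (Acsl3), against 7.44% and 6.98%. Each of these is a count of a few genes, and nothing is read from it about the members. The share of all genes with 1 genotype apart from both others, or with both carriers apart from WT, was not counted.

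The 15 enzymes of mitochondrial oxidation varied together between libraries, and no genotype difference among them passed the test. They are the 4 acyl-CoA dehydrogenases, which open each round for very long, long, medium and short chains, the 5 enzymes of the later steps, the 3 auxiliary enzymes for unsaturated chains and the 3 proteins of electron transfer. In each comparison 0 passed, and 0 were at an unadjusted p under 0.05 by edgeR. Of all genes, 0.508% passed and 20.9% had such a p in hetX753. The shares were 0% and 7.96% in hetL1002P, and 0.115% and 8.24% between the carriers. The log2 fold changes ran from -0.38 (Etfb) to 0.15 (Etfdh) in hetX753, with a median of -0.06, and from -0.29 (Etfb) to 0.15 (Etfdh) in hetL1002P, with a median of 0.01. Over the fits without 1 library the hetX753 median ran from -0.16 (without WT 1) to 0.04 (without WT 3), and the hetL1002P median from -0.13 (without hetL1002P 3) to 0.09 (without WT 3). Without both WT 3 and hetL1002P 3 they were 0.04 and -0.01. Once the trend on length and GC was taken out they were 0.01 and 0.08, and the sign of the medians differed between settings. With library totals alone the hetX753 median was 0.06, where the median over all genes moved by 0.12.

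Acadvl, for very long chains, stood at 367, 380 and 444 CPM in the WT libraries, at 374, 336 and 478 in hetL1002P and at 370, 360 and 364 in hetX753. The third library was the highest in WT and in hetL1002P, and the hetX753 libraries were close together. Acaa2, the thiolase that splits off acetyl-CoA, stood at 144, 180 and 195 CPM for WT, with 164, 157 and 205 for hetL1002P and 171, 184 and 182 for hetX753. Eci1, an isomerase for unsaturated chains, stood at 81.7, 86.2 and 121 CPM in WT libraries 1 to 3, 98.7, 91.9 and 111 in those of hetL1002P and 78.0, 107 and 93.2 in those of hetX753. The 3 genotypes overlapped for each of these genes. Etfb, a subunit of the flavoprotein that takes electrons from the dehydrogenases, stood at 186, 233 and 315 CPM in the WT libraries, at 181, 156 and 264 in hetL1002P and at 197, 204 and 165 in hetX753. It varied most of the 15, at log2 -0.38 in hetX753 (SE 0.22, adjusted p = 0.341), -0.15 without WT 3 and -0.05 with the length and GC trend removed.

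In TMM-scaled CPM, all 15 of these enzymes were highest in WT 3 among the WT libraries, and all 15 in hetL1002P 3 among the hetL1002P libraries. In hetX753 they split, with 10 highest in library 2, 4 in library 3 and 1 in library 1. Relative to the mean of 9 libraries, their median log2 deviation was 0.23 in WT 3 and 0.22 in hetL1002P 3, and from -0.14 to 0.03 in the other 7 libraries. The median of all genes tested deviated by -0.02 and -0.01 in those 2 libraries. With the length and GC trend removed the 2 deviations were 0.14 and 0.15, where all genes moved to 0.04 and 0.05. These are also the 2 libraries with the lowest scaling factors and, for WT 3, the low Ttn value. A low factor raises every CPM of its library, so the order of libraries depends on the scaling. As a share of library totals, Hadha and Etfdh were lowest in WT 3 among the WT libraries. On that scale Acadm, Echs1, Etfa and Etfdh were not highest in hetL1002P 3 among the hetL1002P libraries. The part of the scaling and of the Ttn difference in the enzyme levels was not tested. Of the 3 oxidative fast fibre genes, Mb, for myoglobin, stood at 3078 and 3189 CPM in WT 3 and hetL1002P 3. It stood at 1889 to 2400.4 CPM in the others. Myh2 was at 1140 CPM in WT 3, the lowest of the 9 libraries, and at 2080 in hetL1002P 3, below hetL1002P 1 at 2895. Cox6a2 was at 1679 CPM in WT 3, the highest of the 9, and at 1158 in hetL1002P 3, the highest of its genotype but below WT 2 at 1216. The 3 genes summed to 5898 CPM in WT 3, beside 5897 in WT 2, and to 6426 in hetL1002P 3, the highest. The 9 slow-fibre genes, all detected, summed to 2253 and 2862 CPM in WT 3 and hetL1002P 3, within the range of the other libraries, 877 to 3246 CPM. The 10 fast glycolytic genes summed to 224400 and 202500 CPM there, each the highest of its genotype. So did the 8 muscle-defining genes, at 198300 and 182100. Not all genes of those lists rose, as Myh4 and Ttn were lowest there in each genotype. High values in these 2 libraries were thus not particular to the oxidation enzymes. The share of all genes with this pattern was not counted.

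**Figure D5:**
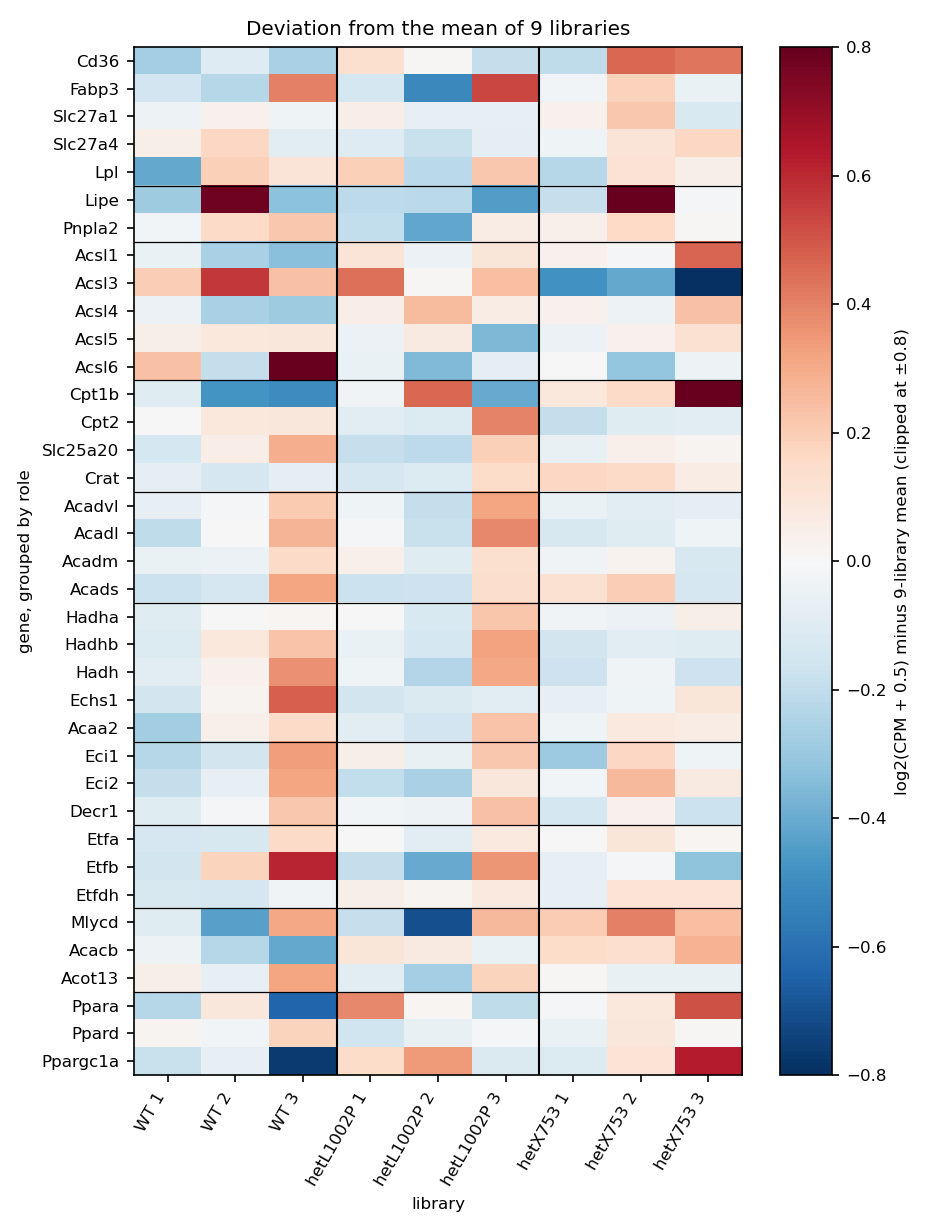
Deviation of each of the 37 genes (rows, grouped by role) in each of the 9 libraries (columns) from its 9-library mean, as log2(CPM + 0.5), with colours clipped at 0.8. The 15 oxidation enzymes, from Acadvl to Etfdh, are mostly red in WT 3 and hetL1002P 3, where 14 of 15 lie above the mean in each.

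The deviations from the genotype means also show this shared variation. Over the 105 pairs of oxidation enzymes the Pearson r of these deviations in the 9 libraries was above 0 in all 105, with a median of 0.814 and a range from 0.34 to 0.983. Over all 666 pairs of members it was above 0 in 411, with a median of 0.315. The points of these pairs share libraries and depth, so r is given as a description. It was not computed for genes outside the members, so the high r is not shown to be particular to these enzymes. With the length and GC trend removed, 90 of the 105 pairs stayed above 0, with a median of 0.666. Hadha and Hadhb encode the α and β subunits of the mitochondrial trifunctional protein, and are transcribed in opposite directions from the stretch shown above. Hadha stood at 348, 372 and 377 CPM for WT, with 373, 343 and 434 for hetL1002P and 365, 361 and 384 for hetX753. Hadhb stood at 400, 457 and 507 CPM in WT libraries 1 to 3, 416, 391 and 541 in those of hetL1002P and 391, 407 and 403 in those of hetX753. In TMM-scaled CPM both were highest in library 3 of WT and of hetL1002P, but as a share of library totals Hadha was lowest in WT 3 among the WT libraries. The deviations of Hadha and Hadhb had r = 0.912. Many other pairs were higher, among them Hadhb with Acadl (0.983, the highest of the 666) and with Slc25a20 (0.976). With the trend removed, Hadha and Hadhb had r = 0.975, the highest of the 666 pairs on that scale. The pair of Hadha and Hadhb was chosen after its values were seen.

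Around malonyl-CoA, Acacb makes the brake at the mitochondrial surface and Mlycd removes it. Acacb stood at 311, 274 and 241 CPM in the WT libraries, at 343, 336 and 309 in hetL1002P and at 354, 352 and 389 in hetX753. The hetX753 libraries were the highest of the 9, above all of WT and hetL1002P. Its log2 fold change was 0.41 in hetX753 (SE 0.12, adjusted p = 0.134) and 0.26 in hetL1002P (SE 0.12, adjusted p = 0.579). DESeq2 called it in hetX753 (adjusted p = 0.0248). Once the trend on length and GC was taken out, Acacb was at 0.10 in hetX753 and -0.02 in hetL1002P, so the direction in hetL1002P turned, and without WT 3 the hetL1002P value was 0.17. Mlycd stood at 95.7, 75.8 and 127 CPM for WT, with 90.2, 62.8 and 123 for hetL1002P and 118, 135 and 121 for hetX753. WT and hetL1002P reached the hetX753 values in library 3 of each, and the log2 fold change was 0.33 in hetX753 (SE 0.24, adjusted p = 0.428) and 0.44 between the carriers (SE 0.24, adjusted p = 0.697). The value in hetX753 was 0.16 without WT 2 and 0.54 without WT 3, and that between the carriers 0.24 without hetL1002P 2 and 0.71 without hetL1002P 3. Acot13, a thioesterase that frees the fatty acid from coenzyme A, stood at 70.4, 65.2 and 85.0 CPM in WT libraries 1 to 3, 64.4, 56.4 and 77.2 in those of hetL1002P and 68.8, 65.4 and 65.4 in those of hetX753, with all genotypes overlapping.

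Of the regulators, Ppargc1a encodes the coactivator PGC-1α, a driver of mitochondrial gene expression. It stood at 17.2, 18.6 and 11.3 CPM in the WT libraries, at 21.6, 24.8 and 17.9 in hetL1002P and at 18.0, 21.03 and 30.4 in hetX753. WT 3 was the lowest of all libraries, while its oxidation enzymes were high. The log2 fold change was 0.56 in hetX753 (SE 0.23, adjusted p = 0.211) and 0.45 in hetL1002P (SE 0.23, adjusted p = 0.579). In a fit of WT and hetL1002P only that took the replicate number as a block, Ppargc1a passed in hetL1002P (log2 0.46, adjusted p = 0.0402), the 1 of 23 alternatives that called it, while a block over all 9 libraries did not call it. With the length and GC trend removed its values were 0.26 and 0.18, and without WT 3 they were 0.37 and 0.27. Without hetX753 3 the hetX753 value was 0.31. Ppara, the receptor for fatty acid ligands, stood at 10.8, 13.6 and 8.03 CPM for WT, with 16.8, 12.9 and 11.01 for hetL1002P and 12.6, 13.5 and 18.4 for hetX753. The groups overlapped, with log2 0.46 in hetX753 (SE 0.23, adjusted p = 0.27) and 0.33 in hetL1002P (SE 0.23, adjusted p = 0.6). The value in hetX753 was 0.29 without WT 3 and 0.27 without hetX753 3, and in hetL1002P it was 0.52 without WT 2, 0.16 without WT 3 and 0.14 without hetL1002P 1. Ppard, another PPAR for fatty acid ligands, stood at 36.3, 35.2 and 40.6 CPM in WT libraries 1 to 3, 31.9, 34.3 and 35.5 in those of hetL1002P and 34.4, 38.1 and 36.0 in those of hetX753, with no separation between genotypes.

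The rest of the pathway was followed in 119 further genes, of which 111 were tested: transport, droplets, the other carnitine enzymes, mitochondrial and peroxisomal oxidation, synthesis and regulators. In hetX753 against WT 3 of the 111 passed higher and 0 lower. Of all 12989 genes tested 43 passed higher and 23 lower, or 0.508% together. The gene lists were chosen with earlier results of these data known, so the number passed cannot be weighed against that share. Cpt1a, the liver-type transferase that also admits long chains to mitochondria, stood at 4.17, 4.59 and 4.01 CPM in the WT libraries, at 4.76, 6.15 and 4.65 in hetL1002P and at 8.41, 13.2 and 13.8 in hetX753 (log2 1.47, adjusted p = 0.025). Ucp3, an uncoupling protein of muscle mitochondria, stood at 51.8, 47.3 and 46.7 CPM for WT, with 39.7, 33.0 and 70.5 for hetL1002P and 95.4, 189.5 and 152 for hetX753 (log2 1.58, adjusted p = 0.0459). Cat, the catalase that removes peroxide made in peroxisomes, stood at 54.6, 54.5 and 48.3 CPM in WT libraries 1 to 3, 62.2, 70.9 and 53.2 in those of hetL1002P and 78.1, 82.7 and 88.5 in those of hetX753 (log2 0.66, adjusted p = 0.0487). In each of the 3 all hetX753 libraries lay above all 6 others. Over all genes, 16.7% had all hetX753 libraries above WT and 7.44% had them above hetL1002P, and the share with both was not counted. Cpt1a was called in 16, Ucp3 in 10 and Cat in 10 of 23 alternatives, and in 3, 3 and 2 of the 9 fits without 1 library. In hetL1002P 0 of the 111 passed, with the smallest p at Fabp4, Dgat1 and Nrip1 (adjusted p = 0.579 each), named after their values were seen. Between the carriers 0 passed, where 0.115% of all genes did, with Cpt1a at log2 1.18 (adjusted p = 0.0632), Ucp3 at 1.61 (0.0707) and Cat at 0.42 (0.34).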

How the data were processed

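RNA was sequenced from whole gastrocnemius in 9 libraries, and the authors deposited 1 table of whole-number read counts per gene symbol, not normalized. TruSeq RNA Library Prep Kit v2 was used, per the labels. The submitters' processing notes name build mm10, featureCounts 1.4.6 (and Subread), TopHat2 2.0.14 and Bowtie2 2.2.6. The sources used here do not give the annotation, the strand setting or any filter. Genotypes were taken from the labels.

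The counts were filtered for expression, scaled by TMM and tested in edgeR 4.0.16 (R 4.3.3) by the quasi-likelihood test with robust estimation, on all 9 libraries and without covariates. Of 24062 symbols 12989 were tested, and p-values were adjusted over all of them by Benjamini-Hochberg. DESeq2 1.42.0, limma 3.58.1 (voom), other scalings and filters, a replicate block, removal of a trend on length and GC content of transcripts (splines of 5 degrees of freedom), and fits without libraries were alternatives. Fits without WT 2 and hetX753 2 together, and the coding RefSeq length, were added after seeing the data. The scripts were tested on simulated data. Gene models came from GENCODE M21, and coordinates and upstream sequences from RefSeq.

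The members and gene lists were chosen with earlier results of these data known. Values in every library are given for members past the threshold, the 4 with the smallest p in each comparison, the member of each role highest per kilobase, and the regulators; from the pathway lists, for genes past the threshold. Others were named after their values were seen. Same-numbered libraries of WT and hetL1002P had correlated deviations from the genotype means (r = 0.285, 0.36 and 0.516 over genes). Those of hetX753 had r = 0.0677, 0.164 and -0.144 with WT, and -0.16, 0.00565 and -0.279 with hetL1002P. Of these only WT 2 with hetX753 2 exceeded 0.1. Pairs of unlike number ranged from r = -0.454 (WT 3 with hetL1002P 2) to 0.281 (hetL1002P 3 with hetX753 1), the latter close to the lowest same-numbered value of WT and hetL1002P. What the numbers mark is not in the labels. Where the block changes the call of a member, or of Cpt1a, Ucp3 or Cat in hetX753 against WT, it stands beside the result. Replicates of a genotype differed by more than counting noise.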

Additional observations from a re-analysis of the deposited data

How the results depend on the processing

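In hetX753 against WT the number of members called was 1, and it was 2 with DESeq2 (Acsl3 and Acacb), 0 with limma-voom, 0 with library totals alone, 0 with the replicate block in all 9 libraries, and 0 without both WT 2 and hetX753 2, an alternative chosen after seeing the data. Over the fits without 1 library it ranged from 0 to 1. The median of the members moved to 0.14 with library totals alone, where the median of all genes moved by 0.12. In hetL1002P against WT 1 member was called with the replicate block on those genotypes alone (Ppargc1a), in place of 0. Between the carriers DESeq2 called 1 (Acsl3), in place of 0. For any genotype difference 1 was called without a low-count filter and 1 without both WT 3 and hetL1002P 3, and from 0 to 1 without 1 library. Directions in hetL1002P against WT turned for values near 0: Acacb was -0.019 with the length and GC trend removed, and -0.023 with the replicate block added to that. Lipe ranged from -0.63 to 0.019 and Acsl3 from -0.23 to 0.023 over the fits without 1 library, and they were at 0.011 and 0.015 without both WT 2 and hetX753 2. The replicate block changed no other member call. The cause of these shifts was not tested. Over all genes the calls in hetX753 numbered 66, from 0 (without WT 1) to 669 (without hetL1002P 3) over the fits without 1 library, 640 with DESeq2 and 31 with library totals alone, and in hetL1002P 0, or 635 with the block on those genotypes alone. With 3 libraries per genotype a gene that missed the threshold is not shown to be unchanged, and counts of Cpt1b were too few to resolve a difference.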
